A study of Mus musculus with 90 samples.

Results

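Livers of obese mice were compared with livers of lean mice before the first meal of the night, by RNA sequencing, over all genes. The comparison used 6 of the 90 samples of the series, 3 obese and 3 lean mice, and 11434 of the 24312 gene symbols measured had a level high enough to be tested. All 6 mice were male and labelled as wild-type C57BL/6. The obese mice had received a high-fat diet, with 60% of energy from fat, for 10 weeks from 5 weeks of age with free access, and the lean mice had received chow for the same time. All then had 4 days of night-restricted feeding, in which food was present in the dark hours and absent in the light hours. On the last evening these mice were given no food at lights off, zeitgeber time (ZT) 12, and the livers were taken at ZT14, so that they were unfed at an hour when a meal was due. Each library came from the liver of a single mouse, and the labels give no weights or blood values. Since the obese mice ate another diet up to the experiment, obesity and diet cannot be told apart. In bulk liver RNA, fewer cells of a type and less RNA per cell cannot be told apart either.

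Before a meal the liver releases glucose, and corticosterone and low insulin act on the same genes. The glucocorticoid receptor (GR, encoded by Nr3c1) is a hormone-bound transcription factor that enters the nucleus when corticosterone rises, which in mice is towards the dark phase. FOXO1 is a transcription factor that insulin expels from the nucleus through AKT, so that its targets, such as those for glucose release, are high in the unfed state and fall after food. Insulin also raises SREBP1c, the Srebf1 product that drives fatty acid synthesis. High-fat feeding is known for raised insulin and for fat storage in the liver.

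The study mapped the DNA bound by GR and FOXO1 in livers of lean unfed mice at ZT14, and the regions below were shown because they lay near genes of the largest or most discussed differences. They were chosen after the values were seen, are given for the mm9 genome on the plus strand, and capitals mark a match to the GR palindrome GNACANNNTGTNC or, on either strand, to the FOXO core TGTTTAC, which do not overlap in any of them. Each GR peak shown was the nearest within 50 kb that overlapped a FOXO1 peak and held the palindrome. For Arrdc3 the nearest FOXO1 peak that held the core was taken. Those matches were thus fixed by the choice, and other peaks were passed over: Ddit4 had 11 GR peaks within 50 kb. The first lay between genes at chr10:59442007-59442186, 27.6 kb upstream of Ddit4 and nearer to the start of Ascc1, and held both motifs:
Ddit4 GR peak: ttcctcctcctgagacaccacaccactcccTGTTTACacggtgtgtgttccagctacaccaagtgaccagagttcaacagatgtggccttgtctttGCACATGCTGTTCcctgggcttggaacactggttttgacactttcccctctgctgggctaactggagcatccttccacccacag
The GR peak at chr11:7056414-7056593 lay 41.3 kb upstream of Igfbp1, in an intron of Adcy1 and nearer to the start of Gm11985:
Igfbp1 GR peak: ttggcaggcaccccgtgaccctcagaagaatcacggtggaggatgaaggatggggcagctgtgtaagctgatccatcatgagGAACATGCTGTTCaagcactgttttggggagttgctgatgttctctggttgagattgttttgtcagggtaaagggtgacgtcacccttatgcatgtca
The one at chr12:16625329-16625508 lay between genes 28.8 kb upstream of Lpin1 and held both motifs:
Lpin1 GR peak: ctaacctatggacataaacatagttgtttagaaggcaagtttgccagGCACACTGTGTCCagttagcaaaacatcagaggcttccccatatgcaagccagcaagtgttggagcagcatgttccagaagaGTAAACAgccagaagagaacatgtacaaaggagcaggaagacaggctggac
The one at chr11:101223613-101223792 lay between genes 5.2 kb upstream of G6pc:
G6pc GR peak: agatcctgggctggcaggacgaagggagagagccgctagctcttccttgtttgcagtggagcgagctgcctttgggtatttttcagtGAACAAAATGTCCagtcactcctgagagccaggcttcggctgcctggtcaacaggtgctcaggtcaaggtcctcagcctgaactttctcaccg
The one at chr17:28660036-28660215 lay between genes 5.7 kb upstream of Fkbp5 and nearer to the start of E230001N04Rik:
Fkbp5 GR peak: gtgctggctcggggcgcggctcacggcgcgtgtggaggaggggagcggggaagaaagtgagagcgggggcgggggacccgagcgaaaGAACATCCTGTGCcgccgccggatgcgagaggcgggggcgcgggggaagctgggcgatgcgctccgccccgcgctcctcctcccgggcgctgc
A FOXO1 peak without the GR palindrome lay 2.9 kb inside Arrdc3, in an intron and nearer to the start of 1700023H06Rik, at chr13:81025456-81025635:
Arrdc3 FOXO1 peak: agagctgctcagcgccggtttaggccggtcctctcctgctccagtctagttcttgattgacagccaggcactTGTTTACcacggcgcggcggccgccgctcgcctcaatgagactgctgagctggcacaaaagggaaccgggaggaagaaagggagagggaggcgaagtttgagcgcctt
Searched on both strands, the GR palindrome was in 815 of 10446 GR peaks (7.80%) and in 278 of 8546 FOXO1 peaks (3.25%). The FOXO core was in 1608 FOXO1 peaks (18.8%) and in 762 GR peaks (7.29%). A match describes the letters of a region and does not show that a factor acts there.

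The 6 libraries held about 16900000 to 27400000 reads, worked out from the value of 1 read in the deposited RPKM (reads per kilobase of transcript, scaled to the mapped reads of the library), so that 0.5 RPKM stood for 8.4 to 13.7 reads per kilobase. The lowest correlation of log2 levels between any 2 of the 12 libraries of the obesity experiment was 0.956. The obese libraries spread more than the lean ones, with standard deviations from the group mean of 0.311, 0.265 and 0.227 on the log2 scale in obese 1, 2 and 3 against 0.194 to 0.220 in the lean libraries. The fed libraries of the experiment, which entered the same fit, spread less, at 0.168 to 0.183. Obese 1 stood apart in clock genes as well as in lipid genes: Arntl, which encodes the core activator BMAL1, was at 0.112, 2.63 and 1.89 RPKM in obese 1, 2 and 3 and at 1.43, 1.24 and 2.02 RPKM in lean 1, 2 and 3. In the same order Nfil3, a clock-linked repressor, was at 3.70, 18.8 and 25.7 RPKM in the obese and 19.8, 22.5 and 22.5 RPKM in the lean mice, so that obese 1 was the lowest library for both genes. Dbp, a clock output activator, was highest in obese 1, at 93.6, 27.8 and 31.7 RPKM in the obese and 26.5, 31.5 and 28.2 RPKM in the lean mice. Results that turn most on obese 1 are therefore given with and without it. Hepatocyte markers summed to 50910 to 59320 RPKM in obese and 59140 to 69303 RPKM in lean livers, all of them above every other marker list. Red cell genes summed to 152 to 429 RPKM in obese and 191 to 482 RPKM in lean livers. Markers of sinusoidal endothelium summed to 38.8 to 50.8 RPKM in obese and 68.8 to 82.1 RPKM in lean livers, without overlap, and their part in the results below was not tested.

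Of the 11434 genes tested, 403 (3.52%) were higher and 194 (1.7%) were lower in the unfed obese livers at a Benjamini-Hochberg adjusted p under 0.05, by limma on log2(RPKM + 0.5) with all 12 libraries of the obesity experiment in 1 fit. Below, a pair of values in parentheses is the log2 fold change of obese against lean livers and its adjusted p from this fit. Of the genes that fell, 65 changed at least 2-fold and the median was -0.75 on the log2 scale, and of those that rose 42 did and the median was 0.59. In all 597 called genes the 3 obese values lay wholly above or below the 3 lean values, which held for 2618 of all genes tested (22.9%). The median over all genes was 0.07, with 7137 genes above 0 and 4297 below, and centring it changed the balance. With median-ratio scaling the median was 0.003, and 211 genes rose and 249 fell, among them 211 of the 403 and all 194 of the genes that fell as deposited. The number of rises therefore depended on the scaling, by more than 1.5 times. With median-ratio scaling 2510 of the 11434 genes had an unadjusted p under 0.05 (limma). The list counts at an unadjusted p below come from the values as deposited, so that number is only a rough background for them. No such count of all genes is given for the fed and L-GRKO comparisons.

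How many genes passed also depended on the libraries used. With the 6 unfed libraries alone, 17 genes rose (0.148%) and 18 fell (0.157%), 16 and 18 of them shared with the counts above, while 1843 genes had an unadjusted p under 0.05. Of the 59 called genes named by rule below, 10 passed with those 6 libraries. Without obese 1, 908 genes rose (7.94%) and 433 fell (3.78%) of 11442 tested, which included 342 of the 403 and 185 of the 194. Leaving out lean 1 gave the fewest, 119 and 83, without lean 2 there were 148 and 107, without lean 3 there were 179 and 107, without obese 2 there were 177 and 126, and without obese 3 there were 192 and 114.

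**Figure D1:**
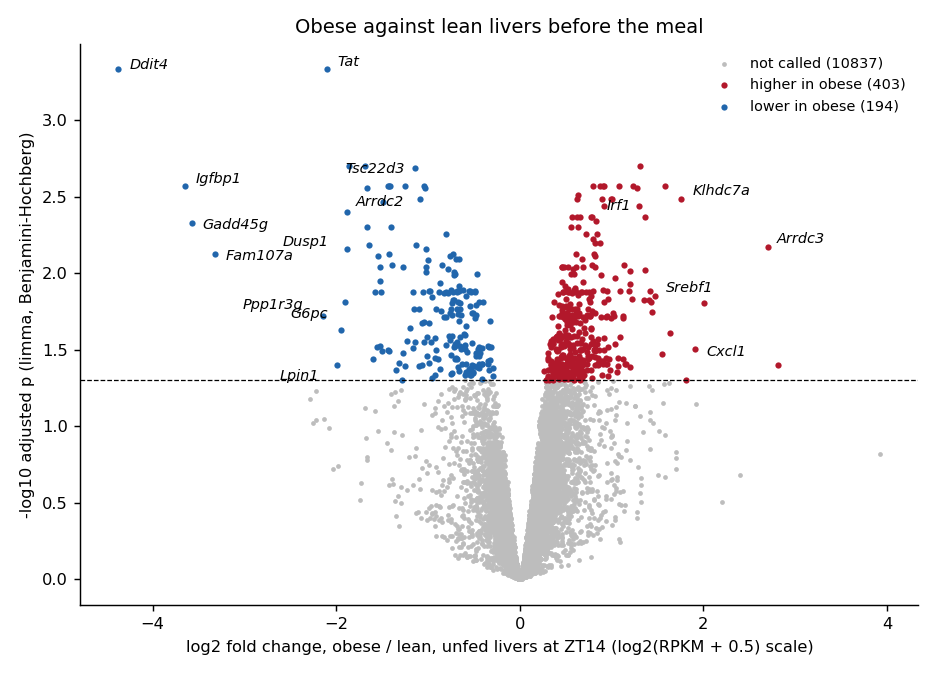
Log2 fold change of obese against lean unfed livers (x) and -log10 of the adjusted p (y) for the 11434 genes tested. Of these, 403 lie to the right and 194 to the left of 0 past an adjusted p of 0.05, and the genes farthest to the left, led by Ddit4, Igfbp1, Gadd45g and Fam107a, lie farther from 0 than those on the right, led by the short locus Mir6921 and by Arrdc3.

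Of 18 classic targets of the glucocorticoid receptor tested, 9 fell in unfed obese livers and 0 rose, 17 of 18 lay below 0 and the median was -1.24 on the log2 scale, against 1.7% of all genes called lower and an all-gene median of 0.07. Of these targets, Pck1, Tat and Klf15 are genes that the study itself discussed for these mice, as are G6pc, Igfbp1, Angptl4, Arrdc3 and Srebf1 below, so they are not independent evidence of a direction. The median of the list was -1.20, -1.19 and -1.22 in obese 1, 2 and 3 relative to the lean mean and 0.09, 0.03 and -0.09 in the lean mice, so all 3 obese mice stood alike. The count that fell was 11 without obese 1, with 1 member higher, and lay between 6 and 8 without any other unfed library. With the 6 unfed libraries alone it was 2.

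Tat, tyrosine aminotransferase, which starts tyrosine breakdown (chr8:112514337-112523703, plus strand), was at 599, 670.2 and 403 RPKM in the obese and 2455, 2328 and 2253 RPKM in the lean mice. Every obese value was far below the lowest lean value. Tat fell by 2.10 on the log2 scale (SE 0.17, limma adjusted p = 0.000466), and the call held without each library in turn. Tsc22d3, which encodes the glucocorticoid-induced leucine zipper, was at 23.3, 46.6 and 31.0 RPKM against 101, 98.9 and 111 RPKM, again without overlap (-1.66, SE 0.21, adjusted p = 0.00276, and 0.0528 with the 6 unfed libraries alone). Fkbp5, a co-chaperone that dampens the receptor and whose upstream GR peak is printed above (chr17:28536040-28654469, minus strand), was at 14.5, 27.9 and 29.4 RPKM in obese and 83.4, 56.7 and 61.6 RPKM in lean livers. Its groups did not overlap, and it fell by 1.52 on the log2 scale (SE 0.34, limma adjusted p = 0.0297), a call lost without any one of the lean libraries (highest adjusted p = 0.0972, without lean 1). Dusp1, a phosphatase of MAP kinases, was at 5.35, 11 and 5.66 RPKM against 22, 39.9 and 22.3 RPKM (-1.88, adjusted p = 0.00696). Sgk1, a kinase of salt balance, was at 5.58, 3.79 and 3.85 RPKM against 10.9, 11.8 and 7.99 RPKM (-1.13, adjusted p = 0.00659), and Klf15, a regulator of amino acid breakdown, at 69.7, 67.6 and 50.6 RPKM against 96.2, 106 and 100.02 RPKM (-0.69, adjusted p = 0.00805). All of Dusp1, Sgk1 and Klf15 kept the call without each library in turn. With the 6 unfed libraries alone none of them passed (limma, adjusted p = 0.0807 for Dusp1 and 0.0995 for Klf15). The members that did not pass included Per1 (-0.82, adjusted p = 0.136), the metallothioneins Mt1 (-1.40, 0.142) and Mt2 (-2.26, 0.0958), Tdo2 of tryptophan breakdown (-0.58, 0.0627), Cdkn1a (-2.08, 0.103), Klf9 (-0.26, 0.297) and, above 0, Lcn2 (0.83, 0.463).

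The mRNA of the receptor itself did not pass the test between obese and lean livers: Nr3c1 was at 16.6, 16.8 and 18.1 RPKM in the obese and 12.4, 14.7 and 14.4 RPKM in the lean mice (0.30, SE 0.08, limma adjusted p = 0.0653). The labels give no corticosterone level, and neither hormone nor receptor protein was measured in these files. The study's own serum corticosterone and insulin values of obese and lean mice were not used.

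The list of FOXO1 targets that insulin represses showed 4 falls and 0 rises of 11 tested (median -0.90, 10 of 11 below 0). The falls were 6 without obese 1 and 2 to 4 without another unfed library, and 1 with the 6 unfed libraries alone. Igfbp1, a secreted binding protein of insulin-like growth factors that insulin switches off (chr11:7097785-7102549, plus strand), was at 15.9, 26.0 and 16.1 RPKM in the obese and 246, 222 and 259 RPKM in the lean mice. Its highest obese value was far below its lowest lean value, and it fell by 3.65 on the log2 scale (SE 0.42, limma adjusted p = 0.00271, and 0.00173 with the 6 unfed libraries alone). Gadd45b, a stress-response gene, was at 0.636, 1.15 and 0.425 RPKM against 5.07, 2.64 and 2.15 RPKM (-1.58, adjusted p = 0.0133). The insulin receptor substrate Irs2 (-0.58, adjusted p = 0.23), the insulin receptor Insr (0.21, 0.254), the pyruvate dehydrogenase kinase Pdk4 (-1.02, 0.17) and the coactivator Ppargc1a (-0.90, 0.0679) did not pass. Among 16 genes of the insulin receptor, IRS, AKT and FOXO path, Foxo3 was the only one called, at 7.95, 9.31 and 6.33 RPKM against 13.4, 12.4 and 14.4 RPKM (-0.75, adjusted p = 0.0172, and 0.0577 without lean 1). Foxo1 itself gave -0.41 (adjusted p = 0.144).

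Genes of glucose output lie on both of these lists. Pck1, which makes phosphoenolpyruvate for gluconeogenesis (chr2:172978549-172984774, plus strand), was at 1381, 1147 and 809.9 RPKM in the obese and 2495, 2498 and 2304 RPKM in the lean mice. The obese values spread more widely and did not reach the lean ones, and Pck1 fell by 1.16 on the log2 scale (SE 0.26, limma adjusted p = 0.031). The Pck1 call held without obese 1 and was lost without any other unfed library (highest adjusted p = 0.0876, without lean 1). G6pc, the glucose-6-phosphatase that frees glucose (chr11:101228875-101239217, plus strand), was at 60.3, 202 and 171 RPKM against 487, 448 and 507 RPKM. Its lowest value was in obese 1, and it fell by 1.91 on the log2 scale (SE 0.36, adjusted p = 0.0155). The G6pc call was lost without lean 1 (adjusted p = 0.0549) and with the 6 unfed libraries alone (0.113). Got1, the cytosolic aspartate aminotransferase, was at 229, 167 and 170.4 RPKM against 648, 373 and 386 RPKM, with lean 1 well above the other lean mice (-1.28, adjusted p = 0.0496, and 0.145 without lean 1). Together 3 of 11 gluconeogenesis genes fell and 0 rose (median -0.29), and without lean 1 none passed. Of the gluconeogenesis list 5 fell without obese 1, and 1 or 2 without each of the other libraries.

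**Figure D2:**
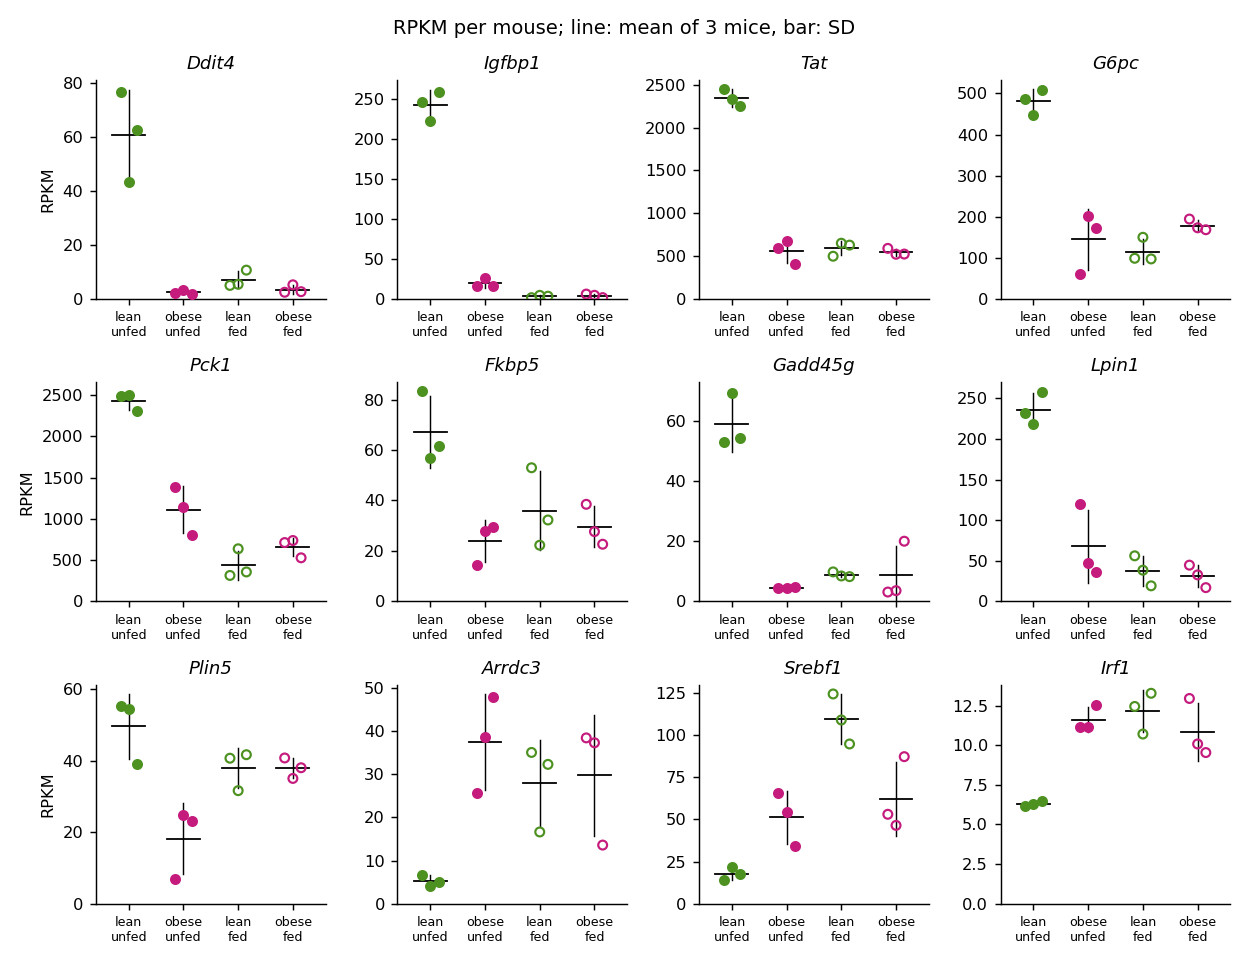
RPKM (y) in each mouse for 12 genes in lean unfed, obese unfed, lean fed and obese fed livers (x); points are mice, the line is the mean and the bar the SD of 3 mice. Igfbp1, Tat and Ddit4 stand high in the lean unfed mice alone (Igfbp1 at 222 to 259 RPKM), and the obese unfed values (15.9 to 26.0 RPKM) lie far below them.

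The steepest falls were those of Ddit4, Igfbp1, Gadd45g and Fam107a. Ddit4, also called REDD1, an inhibitor of the growth kinase mTORC1 (chr10:59412423-59414518, minus strand), was at 2.19, 3.42 and 1.77 RPKM in the obese and 76.4, 43.4 and 62.5 RPKM in the lean mice. It fell by 4.37 on the log2 scale (SE 0.34, limma adjusted p = 0.000466), the largest absolute change of any gene tested, and passed with the 6 unfed libraries alone (adjusted p = 0.00251). Gadd45g, a stress-induced gene of growth arrest (chr13:51942047-51943837, plus strand), was at 4.41, 4.30 and 4.68 RPKM against 53.1, 69.6 and 54.4 RPKM. The obese mice were all within 4.30 to 4.68 RPKM, and the gene fell by 3.57 on the log2 scale (SE 0.50, adjusted p = 0.00473, and 0.000171 with the 6 libraries). Fam107a, a glucocorticoid-responsive gene, was near the floor in the obese mice, at 0.0350, 0.164 and 0.341 RPKM, and at 5.37, 4.86 and 9.03 RPKM in the lean mice (-3.32, adjusted p = 0.00752), so its fold depends on the 0.5 RPKM added to each value. Arrdc2, which encodes an arrestin-domain protein, was at 7.63, 4.62 and 2.95 RPKM against 17.1, 18.8 and 20.5 RPKM (-1.88, adjusted p = 0.00397). Each of these genes kept its call without each library in turn. With the 6 unfed libraries alone Arrdc2 did not pass (limma adjusted p = 0.0633).

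A related arrestin-domain gene went the other way. Arrdc3, which encodes an adaptor for the breakdown of membrane receptors (chr13:81022645-81035296, plus strand), was at 25.7, 38.6 and 47.8 RPKM in the obese and 6.66, 4.08 and 4.96 RPKM in the lean mice. Its lowest obese value was above 3 times its highest lean value. It rose by 2.70 on the log2 scale (SE 0.40, limma adjusted p = 0.00672, and 0.0254 with the 6 unfed libraries alone), the largest rise among called genes other than short RNA loci.

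Fatty acid synthesis did not move as one group. Srebf1, the regulator that insulin raises, was at 65.4, 54.2 and 34.3 RPKM in the obese and 14.2, 21.7 and 17.5 RPKM in the lean mice. Every obese value was above every lean value (1.47, SE 0.27, limma adjusted p = 0.0141, 0.0577 without lean 1, and 0.0807 with the 6 unfed libraries alone). Of the 23 genes on the list it was the one rise, Lpin1 was the one fall, and the median was -0.18. Fasn, fatty acid synthase, was at 79.5, 12.6 and 9.97 RPKM against 43.8, 16.3 and 25.01 RPKM, with obese 1 highest and obese 2 and 3 lowest of all 6 mice (-0.26, adjusted p = 0.834). Without obese 1, Fasn fell by 1.19 on the log2 scale (adjusted p = 0.0368). The desaturase Scd1 was at 2668, 321 and 163 RPKM against 4296, 1529 and 1299 RPKM, with obese 1 between the lean values and the other obese mice below them (-1.98, adjusted p = 0.181, and -3.16, 0.00441 without obese 1). Acly, which makes cytosolic acetyl-CoA, was at 98.9, 30.5 and 24.8 RPKM against 72.5, 39.8 and 47.4 RPKM, and obese 1 was again the highest. Without obese 1, 7 genes of the list fell and 2 rose. Aacs, which activates acetoacetate for lipid synthesis, was at 49.0, 12.5 and 25.2 RPKM against 10.3, 12.4 and 14.4 RPKM (1.00, adjusted p = 0.223), and Insig2, which holds SREBPs in the endoplasmic reticulum, gave -0.12 (adjusted p = 0.896), with the sign turned to 0.43 without obese 1 and to 0.15 without lean 1.

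Cholesterol synthesis showed the same split between the obese mice. The median of its 22 tested genes was 0.86 in obese 1, -1.06 in obese 2 and -0.89 in obese 3 relative to the lean mean, and 0.27, -0.22 and -0.03 in the lean mice. The epoxidase Sqle was at 39.1, 1.90 and 3.09 RPKM against 23.0, 11.8 and 17.6 RPKM, with obese 1 above every lean mouse and the other obese mice below every lean mouse. With all mice 0 genes of the list passed (limma), and 1 had an unadjusted p under 0.05 (18 of 22 below 0, median -0.48). Without obese 1, 8 fell and all 22 lay below 0 (median -0.97), among them Sqle (-2.57, adjusted p = 0.0491). Hmgcs1 was listed at 0 and not tested.

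Of 16 lipid uptake and droplet genes 2 fell and 0 rose with all mice, while 12 of the 16 lay above 0 (median 0.50), and 4 rose and 2 fell without obese 1. Lpin1, of the fatty acid synthesis list, a phosphatidate phosphatase that also acts as a coactivator of fatty acid oxidation, was at 119, 47.2 and 36.3 RPKM in the obese and 232, 218 and 258 RPKM in the lean mice. Obese 1 was the highest obese mouse and still below every lean mouse (-1.99, SE 0.48, limma adjusted p = 0.04). The Lpin1 call was firmer without obese 1 (-2.49, adjusted p = 0.00739) and was lost without any other unfed library (highest adjusted p = 0.119, without obese 2). It was also lost with the 6 unfed libraries alone (limma adjusted p = 0.0995). Plin5, a droplet coat protein of oxidative tissue, was at 6.79, 24.8 and 23.0 RPKM against 55.2, 54.4 and 39.1 RPKM (-1.60, adjusted p = 0.0363, and 0.103 without lean 1), and the triglyceride lipase Pnpla2 at 36.4, 34.7 and 34.9 RPKM against 56.9, 46.6 and 58.5 RPKM (-0.60, adjusted p = 0.0312, and 0.094 without lean 1). Angptl4, a secreted inhibitor of lipoprotein lipase, was at 42.4, 71.2 and 77.8 RPKM against 116, 114 and 121 RPKM (-0.92, SE 0.22, adjusted p = 0.036, 0.0925 without lean 1, and 0.131 with the 6 unfed libraries alone).

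Fatty acid oxidation, which the fatty acid sensor PPAR alpha raises, again split the obese mice, with a list median of -0.36 in obese 1, 0.54 in obese 2 and 0.25 in obese 3 relative to the lean mean. Ppara itself was at 52.7, 96.4 and 89.3 RPKM against 64.2, 69.4 and 65.0 RPKM (0.22, limma adjusted p = 0.52, and 0.49, 0.0179 without obese 1). Plin2, the main droplet coat of hepatocytes, was at 73.8, 223 and 185 RPKM against 101, 99.8 and 93.4 RPKM, with obese 1 alone below the lean mice (0.56, adjusted p = 0.288, and 1.04, 0.000531 without obese 1). Without obese 1, 5 of 27 oxidation and ketogenesis genes rose, among them the pantetheinase Vnn1 (2.38, adjusted p = 0.0122), and with all mice 0 rose and 1 fell, Angptl4, given above. The acyl-CoA thioesterase Acot1 gave -0.64 (adjusted p = 0.507) and 0.18 without obese 1, and 47.1% of its 50-base words also occur in other genes, so its level is uncertain. Of the droplet and uptake genes, Cd36, a fatty acid transporter, was at 7.23, 74.1 and 9.64 RPKM against 9.54, 7.86 and 6.06 RPKM and was high in obese 2 alone.

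**Figure D3:**
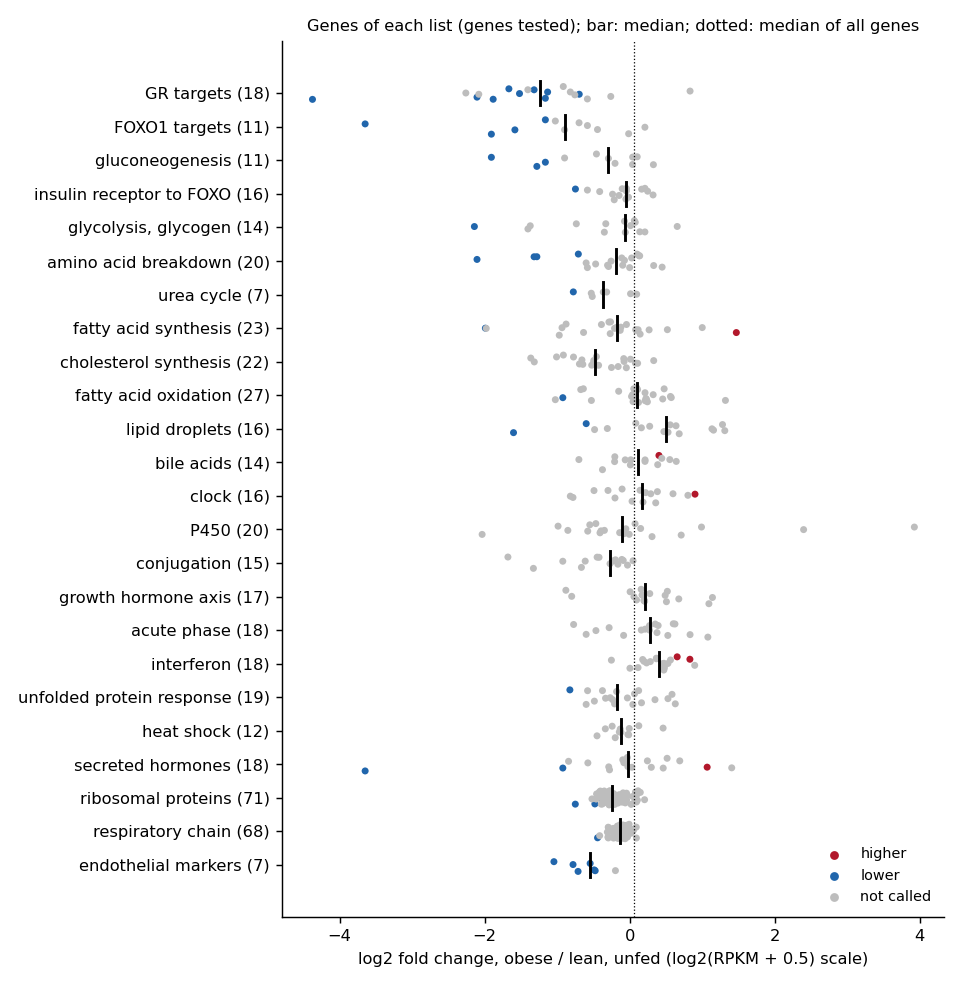
Log2 fold change of obese against lean unfed livers (x) for the tested genes of each list (y); points are genes, the bar is the list median and the dotted line the median of all genes tested, 0.07. Glucocorticoid receptor targets (median -1.24) and FOXO1 targets (-0.90) lie farthest to the left.

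**Figure D4:**
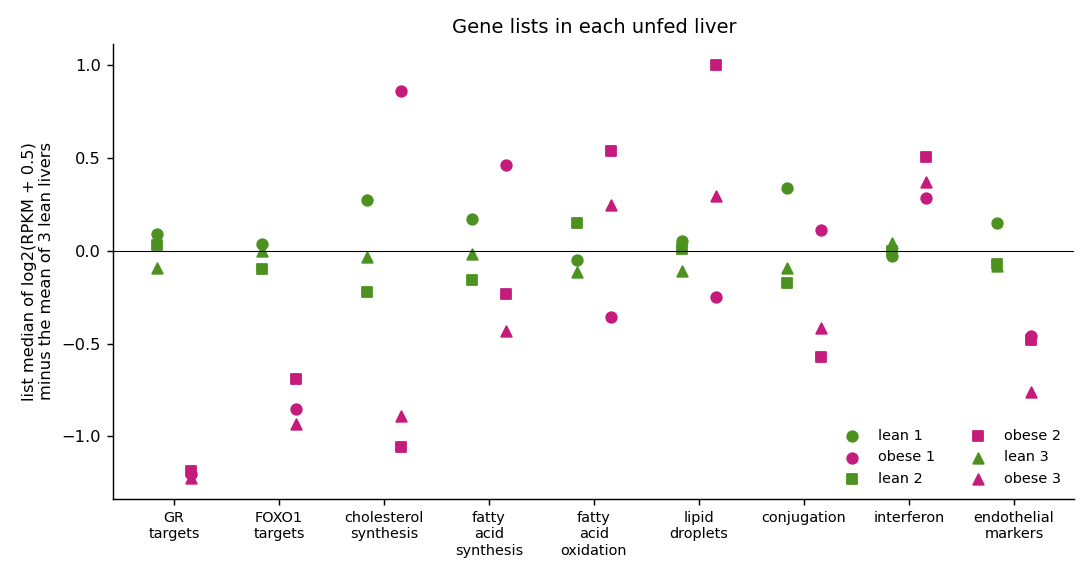
Median log2 level of each list's genes in each of the 6 unfed mice, relative to the mean of the lean mice (y), by list (x); each point is 1 mouse. Glucocorticoid receptor targets lie at -1.22 to -1.19 in all 3 obese mice, while cholesterol synthesis lies at 0.86 in obese 1 and at -1.06 and -0.89 in obese 2 and 3.

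Amino acid breakdown fell in the genes that lie on the lists above and in few others. Of 20 genes 4 fell and 0 rose (median -0.18): Tat and Got1, given above, Sds, which breaks down serine, and its relative Sdsl (-0.71, limma adjusted p = 0.0297). Sds was at 184, 146 and 141 RPKM in the obese and 566, 309.5 and 337 RPKM in the lean mice, with lean 1 the highest (-1.32, adjusted p = 0.0387, and 0.114 without lean 1), and 31.1% of its exon bases overlap other genes. When any unfed library other than obese 1 was left out, Tat alone of these kept the call. In the urea cycle, Asl, argininosuccinate lyase, was the one gene of 7 called, at 415, 349.6 and 406 RPKM against 855, 544 and 638 RPKM (-0.78, adjusted p = 0.0258, and 0.0825 without obese 2). Of 14 genes of glucose uptake, glycolysis and glycogen, the glycogen-targeting subunit Ppp1r3g fell, at 2.71, 1.95 and 0.698 RPKM against 4.65, 12.7 and 11.3 RPKM (-2.14, adjusted p = 0.0191, and 0.0676 without lean 2). Without obese 1, 3 genes of that list fell and 1 rose.

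Ribosomal protein genes lay slightly below the lean level as a group, 61 of 71 with a negative log2 fold change and a median of -0.24, and 4 of them passed. These were Rpl35 (-0.75, limma adjusted p = 0.0341), Rps25 (-0.48, 0.0332), Rps15 (-0.41, 0.0493) and Rplp2 (-0.41, 0.0391). The count was 19 without obese 1, 9 with median-ratio scaling and 0 or 1 without any other unfed library. The list median was -0.08, -0.44 and -0.20 in obese 1, 2 and 3, and 66.2% of the exon bases of Rpl35 overlap another gene. Of 68 nuclear-encoded genes of the respiratory chain only Uqcr11 fell (-0.44, adjusted p = 0.0153), and of 38 proteasome genes only Psmd9 (-0.55, 0.0131), with none higher.

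Lists of daily and xenobiotic metabolism held few calls with all mice. Of 16 clock genes, Per3, a repressor of the clock, was called, at 15.3, 7.30 and 7.90 RPKM in the obese and 4.69, 5.13 and 4.91 RPKM in the lean mice (0.90, limma adjusted p = 0.0391). Obese 1 was the highest, and the call was lost with median-ratio scaling (adjusted p = 0.0608) and without any of the lean libraries (highest 0.104, without lean 1). Without obese 1, 2 clock genes rose and 1 fell, where 7.94% of all genes rose and 3.78% fell. Of 14 bile acid genes, Nr1h4, the bile acid receptor FXR, was called, at 74.5, 67.7 and 83.0 RPKM against 57.8, 58.0 and 53.4 RPKM (0.41, adjusted p = 0.0319), also lost with median-ratio scaling (0.0719) and without obese 3 or any lean library (highest 0.0925, without lean 3). Cyp7a1, the rate-limiting enzyme of bile acid synthesis, gave 0.64 (adjusted p = 0.161). Without obese 1, 1 bile acid gene rose and 2 fell. Of 20 cytochrome P450 genes and their receptors 0 passed with all mice (limma, 8 at an unadjusted p under 0.05), and 3 rose and 3 fell without obese 1. Of 15 conjugation genes 0 passed (3 at an unadjusted p under 0.05), and 4 fell without obese 1. Cyp3a11, a major drug-metabolizing P450, was at 1527, 415 and 70.5 RPKM against 1634, 1813 and 1042 RPKM, within the lean range in obese 1 and lowest of all in obese 3 (-2.03, adjusted p = 0.189). Of 17 genes of the growth hormone axis and urinary proteins 0 passed (limma, 2 at an unadjusted p under 0.05), with a median of 0.21. Without obese 1, 2 of them rose. Among all 11434 genes, 2510 had an unadjusted p under 0.05 with median-ratio scaling (limma). The list counts come from the values as deposited, for which the number over all genes is not given.

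Few genes of inflammation and stress passed. Irf1, an activator of interferon responses, was at 11.2, 11.2 and 12.5 RPKM in the obese and 6.15, 6.29 and 6.46 RPKM in the lean mice. The groups were tight and apart (0.83, SE 0.12, limma adjusted p = 0.00456, and 0.0254 with the 6 unfed libraries alone). Of 18 interferon-stimulated genes, 17 lay above 0 (median 0.41), and Irf1 and the antiviral GTPase Mx2 passed. Mx2 was at 1.88, 1.03 and 1.44 RPKM against 0.577, 0.826 and 0.759 RPKM (0.66, adjusted p = 0.0363), a call lost with median-ratio scaling and without obese 3 or any lean library (highest adjusted p = 0.107, without lean 1). The list stood above the lean mean in every obese mouse, by medians of 0.28, 0.51 and 0.37. None of 18 acute-phase genes, 12 heat shock genes, 10 matrix genes and 8 cell cycle genes passed (limma), with 2, 0, 1 and 0 of them at an unadjusted p under 0.05. Without obese 1, 1 acute-phase gene rose and 1 fell, and 1 heat shock gene rose. The heat shock median was -0.66, -0.07 and 0.10 in obese 1, 2 and 3 relative to the lean mean. Of 19 genes of the unfolded protein and integrated stress responses, Herpud1, which serves protein removal from the endoplasmic reticulum, fell, at 222, 224 and 193 RPKM against 354, 412 and 365 RPKM (-0.82, adjusted p = 0.0194, and 0.0669 without lean 2).

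Among 18 liver-secreted hormones Igfbp1 and Angptl4 fell and Angptl8 rose. Without obese 1, 3 of the list fell and 3 rose. Angptl8, an insulin-raised inhibitor of lipoprotein lipase that acts with its family members, was at 14.98, 13.5 and 18.2 RPKM in the obese and 8.44, 6.69 and 6.31 RPKM in the lean mice, without overlap (1.07, limma adjusted p = 0.036). Its call was lost with median-ratio scaling (adjusted p = 0.0509) and without any unfed library other than obese 1 (highest adjusted p = 0.0983, without lean 3). Inhbe, which encodes activin E, was at 11.5, 38.6 and 43.6 RPKM against 9.79, 10.0 and 9.77 RPKM, high in obese 2 and 3 (1.41, adjusted p = 0.0543, and 2.00, 0.000146 without obese 1).

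The remaining large rises belonged to no single list. Klhdc7a, a kelch-domain gene, was at 6.82, 3.95 and 4.20 RPKM in the obese and 0.822, 1.51 and 0.987 RPKM in the lean mice (1.76, limma adjusted p = 0.00326) and kept the call without each library. Cxcl1, a chemokine that draws neutrophils, was at 4.25, 7.87 and 19.1 RPKM against 1.75, 2.05 and 2.06 RPKM (1.91, adjusted p = 0.0312, and 0.0925 without lean 1), highest in obese 3. Neutrophil markers summed to 0.665 to 1.70 RPKM in obese and 0.296 to 0.456 RPKM in lean livers, with Ly6g at 0 in each, and their part in the Cxcl1 result was not tested. Serpina7, the thyroxine-binding globulin, was at 12.9, 28.5 and 16.1 RPKM against 4.20, 7.52 and 5.19 RPKM (1.64, adjusted p = 0.0245, and 0.0852 without lean 1). Osgin1, a growth inhibitor raised by oxidative stress, was at 93.8, 60.7 and 154 RPKM against 21.2, 29.0 and 55.0 RPKM (1.55, adjusted p = 0.0335, and 0.102 without lean 1). The ubiquitin ligase Rnf186 was at 6.11, 6.16 and 8.82 RPKM against 1.56, 3.52 and 2.17 RPKM (1.41, adjusted p = 0.015, and 0.0556 without lean 1), and Tlr12, a toll-like receptor gene, gave 1.44 (adjusted p = 0.018, and 0.0635 without lean 1). The pseudogene Mug-ps1 of the murinoglobulins gave 1.36 (0.0095), and reads of its family members may be shared with it. The short loci Mir6921 (2.81), Mir5046 (2.01), Mir5132 (1.80) and Mascrna (-1.95) were also called. Mir5046 kept the call in all 12 omissions of 1 library of the fit, Mascrna in 8, Mir5132 in 3 and Mir6921 in 2 (highest adjusted p = 0.121, without lean 1), and a locus of that length collects few reads and a poly(A) library does not measure the mature small RNA.

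Markers of sinusoidal endothelium were lower in unfed obese livers, with 6 of 7 called and all 7 below 0 (median -0.54). Clec4g, a lectin of these cells, was at 24.1, 19.8 and 17.8 RPKM in the obese and 40.8, 33.8 and 32.4 RPKM in the lean mice (-0.78, limma adjusted p = 0.00936), and 21.8% of its exon bases overlap other genes. Lyve1, a hyaluronan receptor, was at 1.598, 3.63 and 2.03 RPKM against 6.32, 4.403 and 5.24 RPKM (-1.04, adjusted p = 0.028, and 0.0928 without lean 1). Oit3 (-0.71, 0.0291), the VEGF receptor Kdr (-0.54, 0.0464), the scavenger receptor Stab1 (-0.49, 0.0133) and Pecam1 (-0.47, 0.0187) also passed and Stab2 did not (-0.19, 0.304). In fed mice the 7 markers summed to 47.1 to 50.8 RPKM in obese and 48.5 to 55.9 RPKM in lean livers, so that of the 4 groups the unfed lean mice, given above, were the one apart. The number called was 6 without obese 1, 2 to 4 without another unfed library and 0 with the 6 unfed libraries alone. Of the hepatocyte markers only Hnf4a was called (-0.48, adjusted p = 0.0348, and 0.104 without obese 2). None of 12 Kupffer, 7 stellate and 4 cholangiocyte markers tested passed (limma, 0, 0 and 1 at an unadjusted p under 0.05), and the adipocyte markers Lep and Plin1 were listed at 0, as was Hmgcs1. The adipocyte markers summed to 27.6 RPKM in obese 2, almost all of it from Cfd, and to at most 0.760 RPKM in the other unfed mice, and their part in the results was not tested.

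In the fit of all 12 libraries fewer genes passed between obese and lean livers after food than before it, an order that turned when each comparison was fitted on its own 6 libraries (720 genes after food, against the 17 higher and 18 lower before it). In the fed mice of the same experiment, 33 genes were higher (0.289%) and 24 lower (0.21%) in obese livers, and 0 of the 18 glucocorticoid receptor targets (median 0.02) and 0 of the 11 FOXO1 targets (median 0.27) passed (limma, 4 and 3 at an unadjusted p under 0.05). Of the 403 genes that rose in the unfed livers 2 were also higher and 1 was lower after food, and of the 194 that fell 2 were also lower and 5 were higher. The number called after food, 57 in all, was unsteady: it was 0 to 8 without any one of the 6 fed libraries, 608 without unfed obese 1, and 15 to 97 without another unfed library. Of 22 cholesterol synthesis genes all lay below 0 in fed obese livers (median -1.19, against 0.01 over all genes). Of them 18 had an unadjusted and 0 an adjusted p under 0.05 (limma). The number of all genes at that unadjusted level is not given for fed livers, so these list counts have no background here. Igfbp1, for example, was at 5.90, 4.38 and 1.48 RPKM in fed obese and 1.39, 4.30 and 3.26 RPKM in fed lean mice (0.28, adjusted p = 0.753). Tat was at 589, 520.0 and 522 RPKM against 497, 649 and 627 RPKM after food (-0.11, adjusted p = 0.762), and G6pc at 194, 173 and 168 RPKM against 98.6, 149.8 and 97.1 RPKM (0.66, adjusted p = 0.332). Srebf1 was at 53.1, 46.5 and 87.3 RPKM in fed obese and 124, 109 and 94.8 RPKM in fed lean mice (-0.85, adjusted p = 0.132), the reverse order of the unfed livers.

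Whether the obese-against-lean difference itself changed with the meal was tested as an interaction, which shares the unfed libraries with the first comparison. It was above 0 for 37 genes (0.324%) and below 0 for 48 (0.42%), and the 85 in all ranged from 27 without lean 3 to 148 without obese 1. Among these were Ddit4 (-3.45 on the log2 scale, limma adjusted p = 0.0104), Igfbp1 (-3.93, 0.0181), Tat (-1.99, 0.00762), G6pc (-2.56, 0.0465) and, above 0, Srebf1 (2.33, 0.0224). Angptl4 was -0.92 in the unfed and 1.56 in the fed mice, with a difference of -2.49 (adjusted p = 0.00762). Mfsd2a, a transporter of lysophosphatidylcholine, was at 28.3, 41.6 and 24.8 RPKM in unfed obese, 122, 86.0 and 71.7 RPKM in unfed lean, 55.9, 64.3 and 70.7 RPKM in fed obese and 21.2, 25.8 and 15.6 RPKM in fed lean mice. It fell in the unfed comparison (-1.55, adjusted p = 0.00776) and rose in the fed one (1.61, 0.0291). Them4, a thioesterase gene that binds AKT, did the same (-0.53, 0.0133 and 0.77, 0.0196). For Arrdc3 the interaction was 2.69 (adjusted p = 0.0603) and did not pass.

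The unfed obese livers were also set beside fed lean livers, a comparison that shares the unfed obese libraries with the first. It called 1032 genes higher (9.03%) and 1318 lower (11.5%), 2350 in all, which became 1284 without fed lean 2, 1471 without fed lean 1, 1491 without fed lean 3 and 1555 without obese 2. On the FOXO1 target list 6 of 11 genes were higher and 0 lower (median 0.73). Igfbp1 was 2.57 higher on the log2 scale (limma adjusted p = 0.00279) and Pck1 1.39 higher (0.00525), and Tat gave -0.11 (0.692), G6pc 0.18 (0.757) and Ddit4 -1.30 (0.0215). Srebf1 was lower than in fed lean livers (-1.13, 0.0148). The unfed obese level of Igfbp1 and Pck1 thus lay between those of unfed and fed lean livers.

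Mice without the receptor in hepatocytes gave a comparison that shares no library with the obesity experiment. L-GRKO mice carry Nr3c1 fl/fl and received an AAV with CRE recombinase under the liver-specific Tbg promoter, and the controls carry the same allele and received an AAV with GFP, with 4 mice in each group, all unfed at ZT14. Nr3c1 was at 3.93 to 5.35 RPKM in L-GRKO and 12.8 to 16.2 RPKM in control livers, so that part of the signal was left, and other liver cells keep the gene. In those livers 519 of 11649 genes were higher (4.46%) and 259 lower (2.22%), 778 in all, which became 391 without L-GRKO 2, 428 without L-GRKO 1 and 432 without control 2. Of the 193 genes lower in unfed obese livers that were tested there, 62 were lower in L-GRKO livers (32.1%, and 23.9% of the 259) and 0 were higher. Of 395 higher in obese livers, 79 were higher (20%, and 15.2% of the 519) and 0 were lower. Among all genes the shares called were those 4.46% and 2.22%. The median over all genes was 0.08 there, with 7763 above 0 and 3886 below, an upward offset like that of the obese comparison. Its part in the shared rises was not tested. Without obese 1 the counts were 82 of 431 lower (19.0%) and 123 of 882 higher genes, with 7 and 5 called the opposite way, and without lean 2 the share of higher genes was 31.1%.

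Of the genes called in obese livers, Ddit4 differed most there and Lpin1 differed most in L-GRKO livers. Lpin1 was at 9.04, 5.57, 5.80 and 7.46 RPKM in L-GRKO and 222, 156, 129 and 165 RPKM in control mice (-4.50, limma adjusted p = 6.2e-07), against -1.99 in obese mice. Fkbp5 was at 7.57, 7.08, 6.00 and 7.22 RPKM against 70.2, 35.1, 44.3 and 40.3 RPKM (-2.64, 3.8e-05). Ddit4 was at 3.03, 3.58, 3.52 and 2.93 RPKM against 32.8, 28.3, 14.8 and 7.58 RPKM (-2.30, 0.00453), and Igfbp1 at 8.41, 9.46, 25.6 and 9.51 RPKM against 91.1, 106, 43.8 and 77.2 RPKM (-2.62, 0.0019). In these genes the groups did not overlap. Arrdc3, which rose in obese livers, was at 20.9, 29.7, 44.0 and 41.4 RPKM against 5.59, 5.25, 7.45 and 18.8 RPKM (1.95, 0.0099). G6pc overlapped between the groups, at 129, 144, 271 and 74.7 RPKM against 297, 276, 138 and 137 RPKM (-0.51, 0.5), Sgk1 gave 0.08 (0.838), and the interferon-stimulated genes, 2 of which rose in obese livers, had a median of -0.34 with 0 of them called (limma, 1 at an unadjusted p under 0.05). Among the lists, 12 of 18 glucocorticoid receptor targets fell and 0 rose (median -1.17), and 2 of 11 FOXO1 targets fell and 0 rose (median 0.04). Fatty acid synthesis showed 7 rises and 2 falls of 23 genes. Over all genes tested there the median was 0.08, with 4.46% called higher and 2.22% lower. The number of all genes at an unadjusted p under 0.05 is not given for that comparison.

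**Figure D5:**
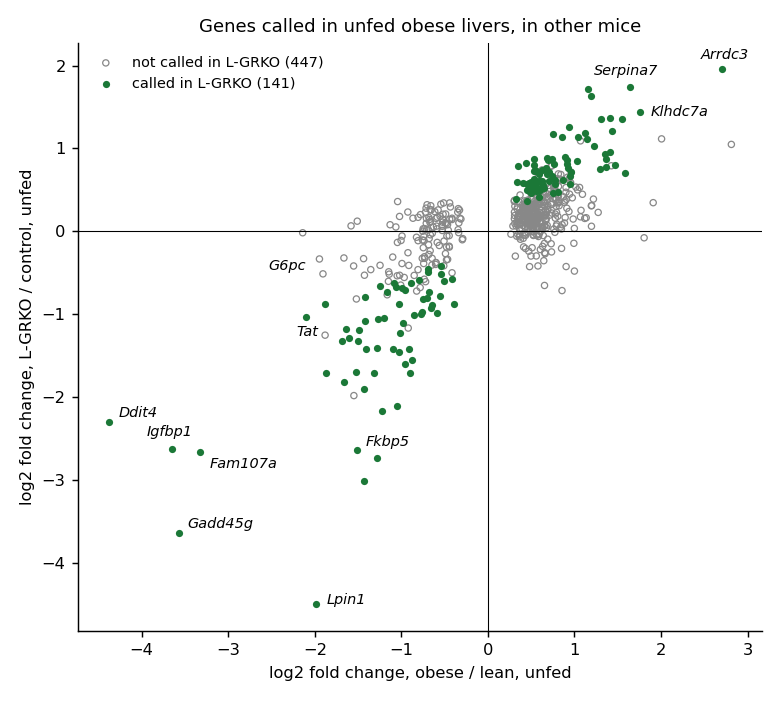
Log2 fold change of obese against lean unfed livers (x) and of L-GRKO against control unfed livers (y) for the 588 genes called in obese livers and tested in both; filled points are the 141 genes also called in L-GRKO livers. No filled point lies in a quadrant of opposite signs, and Lpin1 and Fkbp5 have larger negative values on the y axis than on the x axis.

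The effect of food in lean, vehicle-injected mice, 4 fed and 4 unfed, likewise shares no library with the obesity experiment. The fit also held fed mice given dexamethasone, the insulin receptor antagonist S961 or both, which helped to set the spread. With only the vehicle-injected libraries fitted, 275 genes were called. Food raised 287 of 11251 genes (2.55%) and lowered 65 (0.578%), 352 in all, which became 86 to 191 without any one of fed vehicle libraries 1 to 3 or unfed vehicle libraries 1 to 3, and 928 with a replicate block, which the counts and values below do not use. Of 194 genes lower in unfed obese livers, 17 were lowered by food (8.76%, and 26.2% of the 65) and 4 were raised, and of 388 higher ones 29 were raised (7.47%, and 10.1% of the 287) and 0 lowered. Over all genes the median here was 0.10, with 7528 above 0 and 3722 below, and the part of this offset in the shared rises was not tested. Igfbp1 changed by -4.08 on the log2 scale (limma adjusted p = 0.00288), Ddit4 by -1.87 (0.00419), G6pc by -1.60 (0.0139), Pck1 by -1.02 (0.00794), Srebf1 by 1.27 (0.00607) and Arrdc3 by 1.25 (0.052). Unfed vehicle libraries 1 to 3 were unusually alike, with log2 ratios that spread by an SD of 0.125 to 0.160, so the number of independent unfed mice there is uncertain.

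GR and FOXO1 peaks of lean unfed livers, such as those printed above, were near more of the genes that fell than of all genes. A peak of either factor lay within 50 kb of the start of 156 of 186 genes that fell (83.9%), 257 of 382 that rose (67.3%) and 61.9% of 10933 genes tested and placed on the genome. A GR peak was near 78.0%, 54.5% and 47.9% of the 3 sets, a FOXO1 peak near 75.8%, 53.4% and 50.9%, and both near 69.9%, 40.6% and 36.9%. For GR peaks that held the palindrome the shares were 28.5% of the genes that fell (53), 4.45% of those that rose (17) and 8.16% of all (892). For FOXO1 peaks that held the core they were 29.0% (54), 17.8% (68) and 15.1%. These are shares of genes by distance alone, with no test. No binding was measured in obese livers in the files used. The study's own measurements of GR and FOXO1 binding at single sites in obese livers were not used.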

How the data were processed

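Livers of male mice, 1 mouse per library, were taken at ZT14. Poly(A) RNA was sequenced and aligned by the authors to mm9 with STAR, and the deposited values are RPKM per RefSeq ID; the counting tool and strand setting are not given in the sources used here. The table held 35707 IDs, and each of 24312 symbols was represented by its ID of highest mean level in the 54 RNA libraries. Depth was worked out from the value of 1 read, about 16900000 to 27400000 reads per unfed library of the obesity experiment. A linear model was fitted with limma 3.58.1 (R 4.3.3) to log2(RPKM + 0.5) of genes whose mean level reached 0.5 RPKM, with a variance trend and Benjamini-Hochberg adjustment over all genes tested, at a threshold of 0.05. The 12 libraries of the obesity experiment (obese and lean, unfed and fed, 3 mice each) were fitted together, 8 L-GRKO and control libraries together and 20 libraries of injected mice together. The injected mice were unfed with vehicle, or fed with vehicle, dexamethasone, the insulin receptor antagonist S961 or both. Fold changes are on the log2(RPKM + 0.5) scale and understate those of low genes. The fit was tested on simulated data in which each gene had the same spread in every group. The unfed obese libraries spread more than the fed ones, so that simulation does not cover the unequal spread of these data.

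Alternatives were another pseudocount (0.1 or 1), another filter (none, or 2 RPKM), median-ratio scaling, quantile normalization, no variance trend, a replicate block, only the groups compared, all IDs, an adjusted p of 0.01, a peak window of 20 or 100 kb, and the omission of single libraries in turn. The counts of lists without obese 1, the peak and L-GRKO shares in other fits and the values without each library were added after the data were seen. Named were the 15 genes the study discusses for obesity, the 12 largest rises and 12 largest falls among called genes whose groups do not overlap, the 4 largest called members of each of 37 lists (with none called, the 2 members of highest level) and the 10 smallest adjusted p of the interaction. Some genes that these rules name are not reported here. Further list members were named after their values were seen. The comparison, its genes and its lists were chosen with earlier results of these data known.

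GR and FOXO1 peaks were called by the authors with HOMER against input, kept where replicates of unfed lean livers matched, and deposited as positions, which were used with the mm9 genome and GENCODE vM1 genes (21908 symbols placed). Sequences were read with samtools 1.23.1. Other steps used Python 3.11.15 with pandas 2.3.3, numpy 2.4.6, scipy 1.17.1 and matplotlib 3.10.9.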

Additional observations from a re-analysis of the deposited data

Results flagged for a closer look

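For 20 named genes the obese-against-lean difference in the unfed livers was not the same as that in the fed livers by the limma interaction test with Benjamini-Hochberg adjustment, and each value is the unfed minus the fed difference on the log2 scale. The difference was negative for Mascrna (-4.53), Igfbp1 (-3.93), Ddit4 (-3.45), Mir7024 (-3.37), Mfsd2a (-3.16), G6pc (-2.56), Angptl4 (-2.49), Tat (-1.99), Tsc22d3 (-1.67), Herpud1 (-1.65), Cln8 (-1.34) and Them4 (-1.29). It was positive for Srebf1 (2.33), Klhdc7a (2.30), Rnf186 (2.14), Angptl8 (2.04), Sh3bp2 (1.40), Rassf6 (1.21), Irf1 (0.99) and Inf2 (0.86). The rule that named Mir7024, Mfsd2a, Them4, Inf2, Sh3bp2, Cln8 and Rassf6 used this same test, so their values are a description. The other genes were named for their unfed difference or because the study discussed them for these mice. That unfed difference is part of the interaction, so their values are a description too.

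The genes with printed peaks and Tat, Plin5 and Srebf1 were searched for single mice apart from their group of 4, and 3 values were found. Igfbp1 was at 25.6 RPKM in 1 L-GRKO mouse, Srebf1 was at 66.0 RPKM in 1 L-GRKO mouse, and Arrdc3 was at 18.8 RPKM in 1 control mouse of that experiment, each farther from its group than Dixon's 95% criterion allows. Chance flags about 1 in 20 groups.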

How the results depend on the processing

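The counts depended on the spread and scale used, and where a count moved by over 1.5 times the cause was not tested. The 403 genes higher and 194 lower became 227 and 128 with no filter on low values, 17 and 18 with the 6 unfed libraries alone and 48 and 40 at an adjusted p of 0.01, and the higher genes became 211 under median-ratio and 191 under quantile scaling. Leaving out 1 library gave 119 to 908 higher and 83 to 433 lower genes. The 57 genes of the fed comparison became 8 with no filter, 34 without a variance trend, 720 with its own 6 libraries and 0 at 0.01 (limma, 0 to 608 without 1 library). The 85 of the interaction became 28 with no filter and 15 at 0.01 (27 to 148). The 2350 of unfed obese against fed lean became 1341 with 6 libraries and 808 at 0.01 (1284 to 2645), the 778 of L-GRKO 466 with no filter and 270 at 0.01 (391 to 708), and the 352 of vehicle-injected mice 221 under median-ratio and 215 under quantile scaling and 66 at 0.01 (86 to 509). The share of lower genes also lower in L-GRKO livers was 83.3% with the 6 libraries and 25.1% with quantile normalization (19.0% to 41.1% without 1 library), and that of higher genes 52.9%, 24.8% under median-ratio and 27.9% under quantile scaling (13.9% to 31.1%). Genes that fell had a peak within 20 kb in 71.5% and within 100 kb in 91.9%. Those that rose had one in 46.1% and 79.3%, and all genes tested in 43.0% and 77.4%. Within 50 kb the share of genes that fell was 97.3% at 0.01, 100% with the 6 libraries and 78.9% without obese 1. That of genes that rose was 73.9% at 0.01 and 70.8% without obese 1, and that of all genes tested 61.9%. Replicate numbers did not pair the mice of the obesity experiment (18 same-number correlations of -0.20 to 0.22, 3 over 0.1, 7 of 12 libraries closest to their own number). In the injected mice 27 of 40 same-number correlations were over 0.1 (-0.12 to 0.605), so not every pair was. With a replicate block there were 256 higher and 165 lower genes, 11 in the fed comparison, 46 in the interaction and 928 in the vehicle-injected mice. Of the genes that the naming rule gave and that were not called, 10 turned sign as 1 library was left out, 7 of them list members within -0.66 to 0.67 and the others Insig2 (-0.68 to 0.43, above 0 without obese 1 and at 0.15 without lean 1), Acot1 (-1.08 to 0.18, above 0 without obese 1) and Fasn (-1.19 to 0.28, above 0 without obese 3, at 0.12 without obese 2 and 0.10 without lean 1). Of 59 called named genes 25 kept the call without each library in turn, 54 under median-ratio and 50 under quantile scaling, 48 with the block and 10 with the 6 libraries, and 0 turned sign.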

Other observations

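Other genes separated the unfed obese and lean livers as tightly as those named above, and they were chosen here after their values were seen, from the genes that passed with the 6 unfed libraries alone. Cebpb and Cebpd encode transcription factors that open liver genes to hormones. Cebpb was at 22.6, 20.7 and 27.5 RPKM in obese 1, 2 and 3 and 51.7, 62.6 and 55.5 RPKM in lean 1, 2 and 3, and fell by 1.25 on the log2 scale (SE 0.15, limma adjusted p = 0.00271 with all 12 libraries). Cebpd was at 1.66, 1.45 and 1.24 RPKM against 6.28, 4.36 and 4.49 RPKM (-1.49, adjusted p = 0.00343). Noct, the nocturnin gene of daily metabolism, was at 10.4, 11.7 and 8.42 RPKM against 24.3, 29.7 and 29.8 RPKM (-1.42, adjusted p = 0.00271). Lipg, endothelial lipase, a gene also of the endothelium whose markers were lower in these obese livers, was at 6.63, 6.63 and 4.51 RPKM against 16.3, 18.6 and 15.2 RPKM (-1.44, adjusted p = 0.00271), and the growth kinase Pim3 at 28.1, 18.6 and 19.5 RPKM against 54.0, 66.5 and 57.1 RPKM (-1.42, adjusted p = 0.00271).

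Among the rises of that set, Cldn2, a tight junction protein, was at 20.1, 23.8 and 27.5 RPKM in the obese and 8.49, 10.5 and 8.93 RPKM in the lean mice (1.30, limma adjusted p = 0.00199). Nav2, a cytoskeletal gene, was at 2.83, 2.28 and 2.23 RPKM against 0.665, 0.776 and 0.701 RPKM (1.27, adjusted p = 0.00276). Bcat2, which starts the breakdown of branched-chain amino acids, was at 10.5, 9.83 and 10.2 RPKM against 5.90, 5.38 and 5.60 RPKM (0.80, adjusted p = 0.00271). All of these genes kept their call without each unfed library in turn. In each the 3 obese values lay apart from the 3 lean values, as in every called gene and in 22.9% of all genes tested. The choice of these genes by the unfed libraries favoured both traits, so neither is further evidence.

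Obese 2 held by far the highest values of the genes below, and obese 3 also lay above the lean mice in them. Cyp2b9, a cytochrome P450 gene, was at 0.156, 174 and 11.7 RPKM in obese 1, 2 and 3 and at 0.443, 0.0860 and 0.221 RPKM in the lean mice. Cidea, a droplet fusion gene, was at 0, 3.88 and 0.321 RPKM in the obese mice and listed at 0 in all lean mice.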
